A study of Mus musculus with 12 samples.

Results

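Hematopoietic stem cells (HSCs) with 1 mutant Tet2 allele were compared with wild-type HSCs, in 3 libraries each. Genes were kept where the deposited log2 RPKM was 0 or more, that is 1 RPKM or more, in at least 3 of these 6 libraries. This left 14173 of the 18546 genes in the table. RPKM divides the reads of a gene by its length and by the depth of the library. The comparison asks which transcripts differ when a Tet2 allele is mutant and the Nras genes are wild type.

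The tested cells were Tet2+/- and the cells they were set against were wild type. A second pair of genotypes, NrasG12D/+;Tet2+/- (the compound mutant) and NrasG12D/+, carries the same Tet2 contrast in 6 other libraries. The mice behind all 12 libraries were C57BL/6 and 10 to 12 weeks old, and their marrow was sorted for CD150+CD48-Lin-Sca1+cKit+ cells, the SLAM definition of HSCs. Ribosomal and mitochondrial RNA was depleted and the libraries were stranded. Which part of Tet2 is disrupted, whether the allele is germline, and whether a library holds cells of 1 mouse or several are not given in the sources used here. The p-values therefore measure the spread between libraries, which may be technical.

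TET2 is a dioxygenase that oxidises 5-methylcytosine in DNA, a step toward removal of the methyl group. Mutations of a single TET2 allele are common in clonal hematopoiesis and in myeloid leukemia, and in mice loss of Tet2 is known to increase HSC self-renewal. Such cells are usually described as pre-leukemic: they outcompete normal HSCs slowly and need further mutations, for example in Ras genes, to become leukemia.

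The libraries held 34533120, 26376902 and 26783004 reads in genes for Tet2+/-, against 19205045, 25247216 and 34631653 reads for wild type. Wild-type replicate 1 was the shallowest of the 12 and had 1187 tested genes at 0 reads, against 116 to 546 in the other 5 libraries compared. The 9 HSC markers summed to 233 to 241 RPKM in Tet2+/- and 202 to 238 RPKM in wild-type libraries, and all 9 were tested. Cd48, which the sort excludes, was at or near 0 in 5 of the 6 libraries and at 1.01 RPKM in Tet2+/- replicate 3. Flt3 and Cd34 were in the same marker set, although the stated sort names neither. Over the 6 libraries Flt3 had 4.65 to 11.9 RPKM and Cd34 19.0 to 24.6 RPKM, and both overlapped between the groups. Markers of mature granulocytes summed to 0.0166 to 6.60 RPKM in Tet2+/- and 0.0166 to 2.85 RPKM in wild-type libraries, with 1 of 6 tested. Those of granulocyte-monocyte progenitors summed to 11.2 to 15.9 RPKM in Tet2+/- and 7.41 to 10.8 RPKM in wild type. Prtn3 gave most of that, at 10.1, 12.8 and 10.9 RPKM in Tet2+/- and 7.40, 9.12 and 10.6 RPKM in wild type. Elane, neutrophil elastase, had 181, 42 and 1 reads in Tet2+/- libraries (5.80, 1.77 and 0.0504 RPKM) and 0 reads in the wild-type libraries and in the 6 others, and did not reach the minimum to be tested. Mpo stayed below 0.3 RPKM in all 6. The part of these transcripts in the results was not tested. By Xist and Y-linked transcripts, 2 Tet2+/- libraries and 1 wild-type library were male. In bulk RNA, fewer cells of a type and less RNA per cell cannot be told apart.

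Tet2 itself did not differ detectably. It had 5.23, 4.09 and 4.82 RPKM in Tet2+/- HSCs, against 4.93, 4.94 and 4.98 RPKM in wild-type HSCs. The wild-type values lay inside the Tet2+/- range. The log2 difference was -0.08 ± 0.20 (SE), with a 95% interval of -0.51 to 0.36 and a limma adjusted p of 0.999. In the other Nras background Tet2 had 4.50, 5.68 and 4.76 RPKM in compound HSCs, against 7.03, 5.27 and 4.84 RPKM in NrasG12D/+ HSCs, again overlapping. The 95% interval there was -0.62 to 0.25. Both intervals hold 0, and both exclude a fall of 1 on the log2 scale. A count over the whole gene does not separate the 2 alleles and checks nothing where a disrupted allele is still transcribed.

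The chromosome 3 neighbours of Tet2 (mm10 chr3:133463679-133545139, minus strand) were also close between the groups. Of 6 protein-coding genes within 1000000 bases, 5 were tested, with log2 differences of -0.06 to 0.27. The smallest p-values were 0.299 for Tbck and 0.485 for Gstcd. Nras had 5.21, 6.35 and 6.70 RPKM in Tet2+/- and 5.66, 6.13 and 4.95 RPKM in wild-type HSCs, a log2 difference of 0.12 ± 0.20.

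Across the transcriptome the groups were close. With limma, 1 gene rose in Tet2+/- HSCs at adjusted p under 0.05 (0.00706% of genes tested) and 0 fell (0.0%). At an unadjusted p under 0.05 there were 255 higher genes (1.8%) and 223 lower genes (1.57%), together 3.37%. A fit of the recovered reads with voom called 0 genes in either direction and had 565 at an unadjusted p under 0.05. The median log2 difference was 0.03, with quartiles of -0.21 and 0.31, and 53.9% of genes were above 0 and 46.1% below. A difference of 1 or more either way was seen for 2084 genes (14.7%).

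Precision set what could be seen. The 95% interval of a gene reached a median of 0.82 to either side of its log2 difference. It was 1.29 for genes at 1 to 4 RPKM, 0.68 at 4 to 16 RPKM and 0.44 at 16 RPKM or more. For 44.7% of the genes the whole interval lay between -1 and 1, so a change of 2-fold or more fell outside it. The interval lay within -0.5 and 0.5 for 11% of genes. The median SD over genes of log2 RPKM was 0.31 among Tet2+/- libraries and 0.40 among wild-type libraries. Pairs of libraries correlated across genes with r of 0.63 to 0.75 within Tet2+/-, 0.54 to 0.70 within wild type and 0.54 to 0.79 between the groups.

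**Figure D1:**
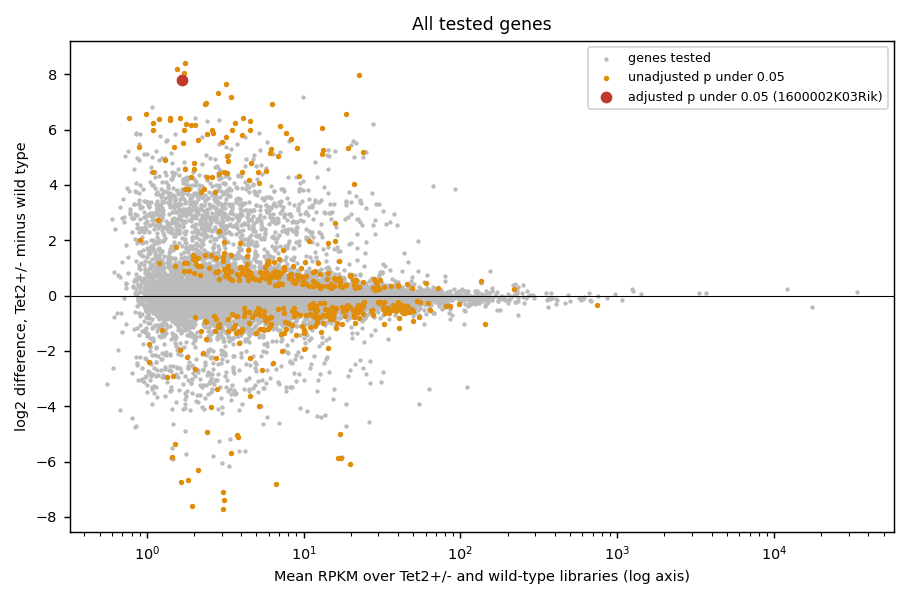
Each point is a gene tested: the horizontal axis is its mean RPKM over the 6 libraries on a log scale, and the vertical axis its log2 difference, Tet2+/- minus wild type. Orange points have an unadjusted p under 0.05 (478 genes) and the red point is 1600002K03Rik, the only gene called; differences beyond 2 either way lie mostly at low RPKM.

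The gene that rose was 1600002K03Rik (ENSMUSG00000035595), a protein-coding gene on chromosome 10 at mm10 chr10:80172944-80175146, plus strand. It had 125, 21 and 61 reads in the Tet2+/- libraries, against 0, 0 and 0 reads in the wild-type libraries. In RPKM this was 5.44, 1.21 and 3.41 in Tet2+/- HSCs, so it passed the minimum through these libraries alone. Against a floor of 3 reads per wild-type library it was at least 19.0-fold higher in Tet2+/- HSCs. The fitted log2 difference was 7.78, which depends on the prior count, and the limma adjusted p was 0.00191.

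The 6 libraries with the Nras allele all held reads of 1600002K03Rik. Compound HSCs had 49, 79 and 76 reads, against 117, 149 and 107 reads in NrasG12D/+ HSCs. The 3 wild-type libraries thus stood apart from the other 9. The interaction was called for this gene, at -8.47 on the log2 scale with a limma adjusted p of 0.0225, and this value too depends on the prior count. The interaction call was lost in 11 of 22 alternatives, over which its limma adjusted p lay between 0.00226 and 1 and its size between -9.08 and -3.35. Those 11 were the pseudocount of 0.5, quantile normalisation, the replicate block, sex as a covariate, voom and the omission of Tet2+/- replicate 1 or 3, compound replicate 1 or 2, or Nras replicate 1 or 2. With 3 libraries at the same floor value the wild-type group has no spread of its own. The call in Tet2+/- against wild type was lost in 4 alternatives. The log2 difference was 2.73 with a pseudocount of 0.5 (limma adjusted p = 0.186) and 6.14 in quantile-normalised values (limma adjusted p = 0.979). It was 7.78 in a fit of only the 6 libraries (limma adjusted p = 0.930) and 6.71 with voom (limma adjusted p = 0.958). Over every alternative run its adjusted p lay between 0.000441 and 0.979. Its neighbours within 50000 bases, Stk11, Atp5d, Midn and Cirbp, had log2 differences of -0.14 to 0.08.

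Complete absence on either side was rare among the genes tested, which the minimum favours. A gene at 0 reads in all 3 libraries of a group passed only with 1 RPKM or more in all 3 of the other. The reads in the other group below are therefore largely set by the minimum, and nothing is read from them. Of the genes tested, 11 had 0 reads in all 3 wild-type libraries, and 10 of these had more than 3 reads in every Tet2+/- library. The reverse held for 3 genes with 0 reads in all Tet2+/- libraries, all of which had more than 3 reads in every wild-type library. Most were provisional gene models, pseudogenes or small RNAs with under 240 reads in any of the 12 libraries.

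The remaining genes are values that did not pass the adjusted threshold. The groups did not overlap for 751 higher genes (5.3%) and 598 lower genes (4.22%), together 9.52%. Of these, the 12 of smallest p in each direction are described, all with a limma adjusted p of 0.995. Their unadjusted p ran from 0.000808 to 0.00869, and their log2 differences from 0.45 to 2.95 in size. They were chosen by these p-values, so their lack of overlap is a description.

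**Figure D2:**
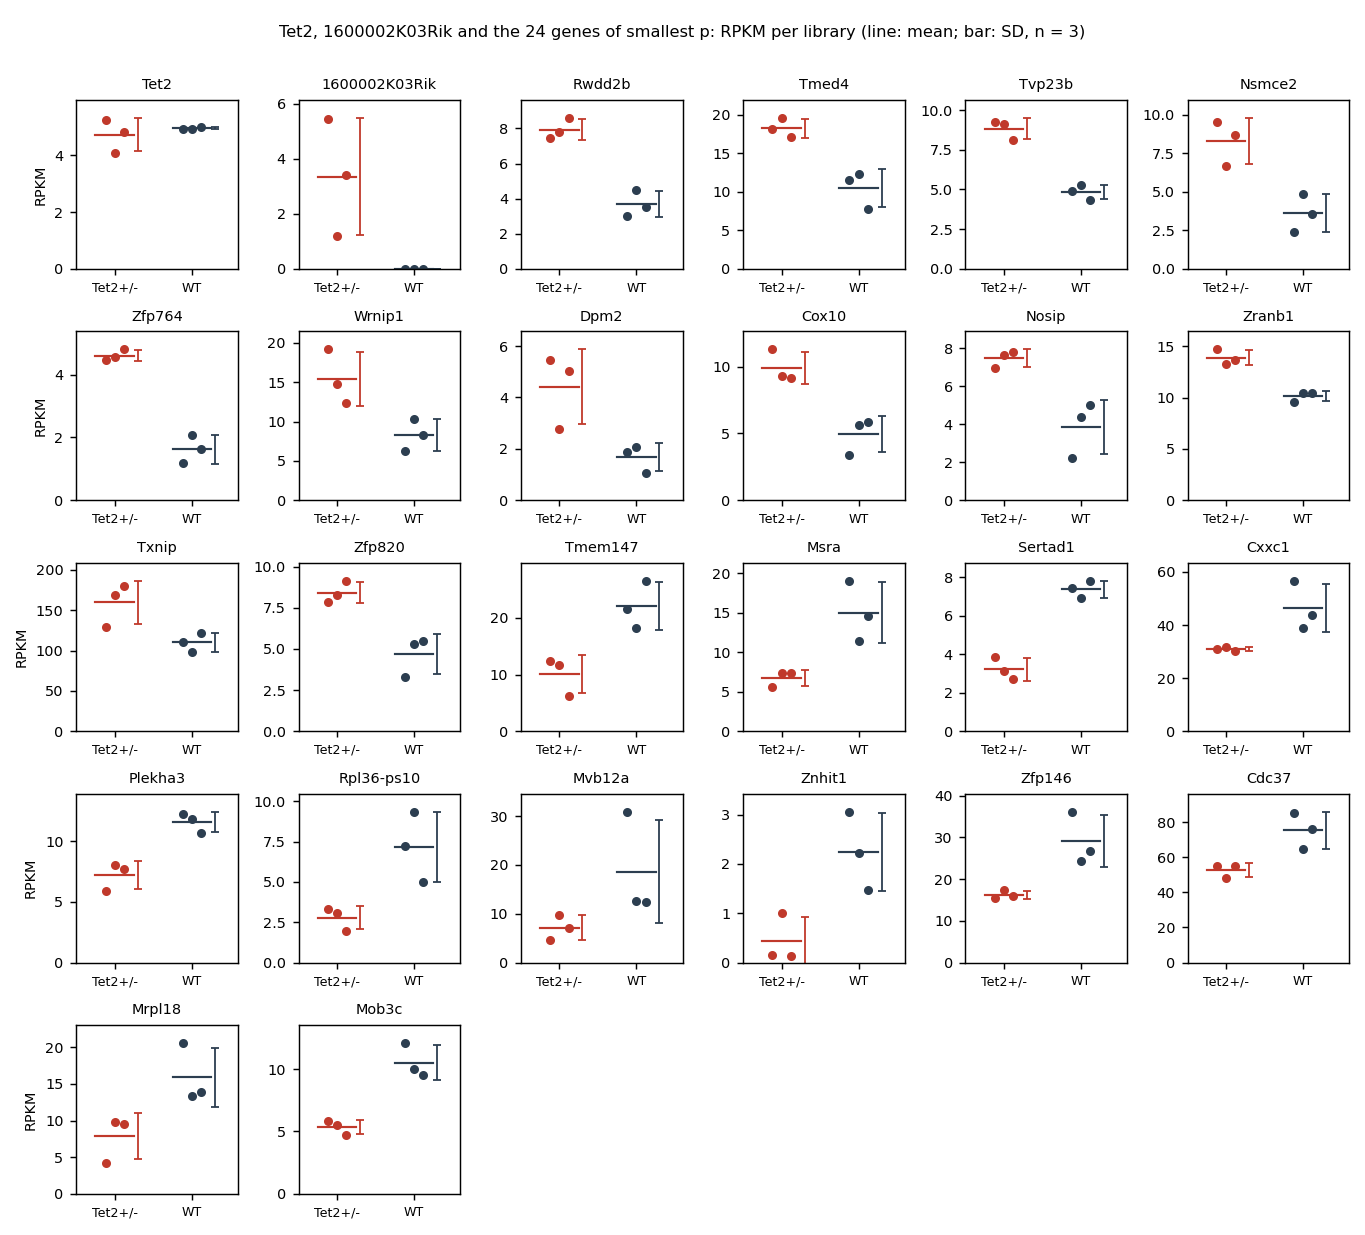
RPKM of Tet2, 1600002K03Rik and the 24 genes of smallest p, with the 3 Tet2+/- libraries (red) left of the 3 wild-type libraries (dark); the line is the mean and the bar the SD, which is cut at 0 for Znhit1. Tet2 overlaps between the groups, and each of the 24 genes does not.

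Several of the 24, some higher and some lower, belong to the secretory route from endoplasmic reticulum to Golgi. The share of all genes tested that do was not counted, so no theme is read from them. Tmed4, a cargo receptor of the p24 family, had 18.1, 19.5 and 17.1 RPKM in Tet2+/- HSCs, against 11.5, 12.3 and 7.71 RPKM in wild-type HSCs (log2 0.82 ± 0.19 SE, limma adjusted p = 0.995). Tvp23b, a Golgi membrane protein, had 9.27, 9.14 and 8.10 RPKM in Tet2+/-, against 4.91, 5.27 and 4.37 RPKM in wild type (log2 0.87 ± 0.21). The lowest Tet2+/- library was well above the highest wild-type library for both genes.

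Tmem147, a subunit of the translocon that inserts multipass membrane proteins, went the other way. It had 12.3, 11.6 and 6.18 RPKM in Tet2+/- HSCs, against 21.6, 18.2 and 26.6 RPKM in wild-type HSCs (log2 -1.19 ± 0.26, limma adjusted p = 0.995). Plekha3, which binds a Golgi phosphoinositide, was lower (log2 -0.69), as was Mvb12a, an ESCRT-I subunit that sorts cargo at endosomes (log2 -1.31). Dpm2, a subunit of the synthase that supplies mannose for glycosylation, was higher (log2 1.41).

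The wider list of cargo receptors, coats and Golgi proteins did not lean one way. Of 42 members 41 were tested, 17 with a log2 difference above 0 and 24 below, with 0 called and a median of -0.04 beside 0.03 over all genes tested. Leaving out each library in turn gave medians of -0.09 to 0.00. Cope, a subunit of the COPI coat, had a log2 difference of -0.58 and Tmed5, another p24 protein, 0.60. Of 21 tested members of the translocon and membrane insertion list, 7 were above 0 and 14 below, with a median of -0.10 and 0 called, which was -0.03 without Tet2+/- replicate 1 and -0.19 without Tet2+/- replicate 2. Sec61g, of the translocon channel, had 0.00160, 1.01 and 0.440 RPKM in Tet2+/-, against 3.21, 0.601 and 1.25 RPKM in wild type, and overlapped.

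The 4 genes of smallest p among cyclins, CDKs and their partners were all lower in Tet2+/- HSCs, without passing the adjusted threshold. The list was chosen with earlier results of these data known, so nothing is read from their shared direction. Sertad1, which binds CDK4 and modulates E2F activity, had 3.87, 3.12 and 2.70 RPKM in Tet2+/- HSCs, against 7.44, 6.90 and 7.77 RPKM in wild-type HSCs (log2 -1.20 ± 0.29, limma adjusted p = 0.995). Every Tet2+/- library was below 4 RPKM and every wild-type library above 6 RPKM. Ccne2, the E2-type cyclin of the G1 to S transition, had 0.761, 0.772 and 0.681 RPKM in Tet2+/-, against 2.05, 1.41 and 1.78 RPKM in wild type (log2 -1.23 ± 0.37).

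Cdkn2c, an INK4 inhibitor of CDK4 and CDK6, had a log2 difference of -1.27, and its Tet2+/- and wild-type values overlapped. Cdk2 was at -0.35. Over the 16 tested cyclins, CDKs and partners, 7 were above 0 and 9 below, with 0 called and a median of -0.06. The median was -0.01, with 8 of 16 above 0, without wild-type replicate 1, and -0.15 without Tet2+/- replicate 2. As a level (the median over members of log2 RPKM relative to the 6-library mean), this list was 0.00, 0.02 and -0.06 in Tet2+/- libraries, against 0.11, 0.14 and 0.13 in wild-type libraries, which did not overlap. Of 35 lists with a level, 11.4% did not overlap. Of the 16 genes, 3 were lower and 0 higher without overlap, where 4.22% and 5.3% of all genes tested were. Nothing is read from these counts.

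Lists of cycling genes lay below 0 without a called member. Of 24 tested G2/M genes 5 were above 0 and 19 below, with a median log2 difference of -0.23. The median was -0.10 without wild-type replicate 1, -0.34 when wild-type replicate 2 was omitted and -0.07, with 9 above 0, when libraries were weighted by quality. Wild-type replicates 1 and 3 were high in this list (0.23 and 0.29) while wild-type replicate 2 (-0.16) was below all 3 Tet2+/- libraries (-0.09 to -0.03). The smallest p among these genes was 0.0347, for Ccnb2, a mitotic cyclin, at -0.99. Kif11 and Ect2, a spindle motor and a cytokinesis factor, were higher (0.33 and 0.91), and neither overlapped.

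For S phase 8 of 27 were above 0 and 19 below, with a median of -0.09 that was 0.02, with 16 above 0, without wild-type replicate 3. Omitting Tet2+/- replicate 1 or wild-type replicate 2 gave -0.17. Pold1, the catalytic subunit of DNA polymerase delta, was at -0.45 and Cdc45, of the replicative helicase, at -0.43. Replication-dependent histones were 9 above and 17 below 0 of 26, with a median of -0.12. That median turned to 0.07, with 15 above 0, without Tet2+/- replicate 1, and was -0.02 without wild-type replicate 1 or 3 and -0.25 without Tet2+/- replicate 3. Weighting the libraries by quality gave 0.04.

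Quiescence genes gave 11 above and 7 below 0 of 18 tested, with a median of 0.08 and 0 called. The median was -0.10, with 8 above 0, without wild-type replicate 1, and 0.31, with 15 above 0, without Tet2+/- replicate 1. It was 0.00 without Tet2+/- replicate 2 and 0.28 without wild-type replicate 2. With sex as a covariate the median was 0.31, with 15 above 0. Txnip, which restrains glucose uptake and binds thioredoxin, had 129, 169 and 180 RPKM in Tet2+/- HSCs, against 110, 98.7 and 122 RPKM in wild-type HSCs (log2 0.52 ± 0.16, limma adjusted p = 0.995). Its lowest Tet2+/- value was just above its highest wild-type value. Foxo3, a transcription factor that keeps HSCs quiescent, had a log2 difference of 0.29.

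Among genes of chromatin and DNA repair, Cxxc1 was lower. Cxxc1, the unmethylated-CpG binding subunit of the SET1 histone H3K4 methyltransferase, had 30.9, 31.7 and 30.4 RPKM in Tet2+/- HSCs, against 56.7, 39.0 and 43.8 RPKM in wild-type HSCs (log2 -0.57 ± 0.14, limma adjusted p = 0.995). The Tet2+/- libraries were nearly equal and the wild-type ones spread upward. The other 11 tested proteins that bind CpG or methyl-CpG had log2 differences up to 0.19, 8 of the 12 being above 0, with 0 called.

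Znhit1, a subunit of the SRCAP complex that deposits histone H2A.Z, had 0.160, 1.01 and 0.135 RPKM in Tet2+/-, against 3.06, 2.22 and 1.47 RPKM in wild type. Its log2 difference was -2.95 ± 0.84, the largest in size of the 24, and came from 17 to 126 reads in Tet2+/- libraries. Nsmce2, the SUMO ligase of the SMC5/6 complex, had 9.54, 6.68 and 8.71 RPKM in Tet2+/- HSCs, against 2.42, 4.87 and 3.59 RPKM in wild-type HSCs (log2 1.24 ± 0.31). Wrnip1, an ATPase at stalled replication forks, was higher by 0.90.

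Promoter windows are shown for Tmed4, Tmem147 and Sertad1. They are the higher and the lower named gene of smallest p with a window in the RefSeq table, and the named lower gene with an unadjusted p under 0.05 in compound minus Nras as well. TET enzymes act on CpG dinucleotides, which are set in capitals (CG, the same on both strands). Each window runs from 250 bases before to 50 bases after the annotated start in RefSeq on GRCm38.p6, and is written on the strand of the gene.
Tmed4: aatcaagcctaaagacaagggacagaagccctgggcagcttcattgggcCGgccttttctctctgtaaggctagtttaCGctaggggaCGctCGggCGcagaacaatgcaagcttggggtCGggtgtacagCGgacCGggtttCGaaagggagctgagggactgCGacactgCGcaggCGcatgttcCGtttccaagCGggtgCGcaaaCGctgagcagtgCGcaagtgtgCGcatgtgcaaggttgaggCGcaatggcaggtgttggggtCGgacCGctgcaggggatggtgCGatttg
Tmem147: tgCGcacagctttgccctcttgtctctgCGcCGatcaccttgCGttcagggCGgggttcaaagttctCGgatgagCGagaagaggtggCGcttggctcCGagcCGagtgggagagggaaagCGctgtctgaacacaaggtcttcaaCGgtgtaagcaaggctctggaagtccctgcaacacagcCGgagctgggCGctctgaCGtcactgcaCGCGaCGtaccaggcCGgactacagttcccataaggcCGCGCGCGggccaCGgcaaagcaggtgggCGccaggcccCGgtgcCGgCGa
Sertad1: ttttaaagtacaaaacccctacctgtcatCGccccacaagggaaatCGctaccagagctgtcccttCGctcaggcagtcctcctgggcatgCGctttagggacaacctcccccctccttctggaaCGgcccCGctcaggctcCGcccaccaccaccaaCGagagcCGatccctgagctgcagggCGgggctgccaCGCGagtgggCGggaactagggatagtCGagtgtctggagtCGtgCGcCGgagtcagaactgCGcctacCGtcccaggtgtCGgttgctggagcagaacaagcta

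The Tmed4 window (chr11:6274788-6275087, minus strand) held 22 CG and 23.1% of all 32851 windows held as many. The Tmem147 window (chr7:30729485-30729784, minus strand) held 28, which 14.2% of windows matched. The Sertad1 window (chr7:27486703-27487002, plus strand) held 20, which 26.5% matched. The median window held 7, counted over all windows and not over those of tested genes alone, so nothing is read from it. The 18 named genes with a window ranged from 6 to 36, and no methylation was measured in these libraries.

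No gene of cytosine methylation, oxidation or repair was called. Of 24 listed genes 19 were tested, 13 with a log2 difference above 0 and 6 below, with a median of 0.14. Tet1 had 6.94, 7.45 and 6.92 RPKM in Tet2+/- HSCs, against 4.36, 7.51 and 5.29 RPKM in wild-type HSCs (log2 0.35 ± 0.20, limma adjusted p = 0.995). Tet3 had 12.8, 12.1 and 13 RPKM in Tet2+/-, against 11.1, 11.2 and 11.4 RPKM in wild type (log2 0.17 ± 0.11). Tet3 values did not overlap, while those of Tet1 did, with wild-type replicate 2 the highest of all.

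The methyltransferases lay on both sides of 0. Dnmt3a, which methylates DNA anew, was at -0.04, with an SE of 0.14, and Dnmt1, which maintains methylation, at -0.06. Dnmt3b was at 0.24. Uhrf1 and Uhrf2, which bind hemimethylated DNA, were at -0.26 and 0.14.

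Of the glycosylases that repair deaminated or oxidised bases, Mbd4 was at 0.49, Tdg at 0.41 and Smug1 at 0.22, and all 3 overlapped. The others were Ogt (0.17), Idh1 (0.24), Idh2 (0.05), Hells (0.08), Cxxc5 (0.04), Apobec3 (0.00), Gadd45a (-0.66) and Gadd45b (0.22). None of these passed an unadjusted p of 0.05. Without wild-type replicate 1, the shallowest library, the list median was 0.03, and omitting wild-type replicate 3 gave 0.04.

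No HSC identity gene was called. All 30 listed genes were tested, 24 above 0 and 6 below, with a median log2 difference of 0.09, a range of -0.65 to 0.34 and 0 called. For 27 of the 30 the 95% interval lay within -1 and 1. Omitting wild-type replicate 1, 2 or 3 gave a median of 0.04, 0.15 or 0.06, with 20 to 26 genes above 0.

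Runx1, a master regulator of hematopoiesis, had 16.5, 18.9 and 16.8 RPKM in Tet2+/- HSCs, against 12.4, 15.5 and 13.5 RPKM in wild-type HSCs (log2 0.34 ± 0.13, limma adjusted p = 0.995). Hlf, a transcription factor specific to HSCs, had 65.8, 68.1 and 66.7 RPKM in Tet2+/-, against 47.1, 63.5 and 54.4 RPKM in wild type (log2 0.29). Kit, the stem cell factor receptor used in the sort, had 76.7, 76.9 and 74.4 RPKM in Tet2+/-, against 67.2, 68.2 and 64.7 RPKM in wild type (log2 0.19). The groups did not overlap for these 3 genes, and each difference was small beside those of the 24 genes above. Sult1a1 was lower (-0.65) and did not overlap. Of the 30 genes, 3 higher and 1 lower thus had no overlap, where 9.52% of all genes tested had none. Nothing is read from this count.

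The Hox and Polycomb lists had levels slightly above those of wild type in the Tet2+/- libraries. Of 35 lists with at least 3 tested members, 2 were higher and 2 lower without overlap (11.4%), a share near the 9.52% of all genes tested. The level of all genes tested was 0.03, 0.06 and 0.06 in Tet2+/- libraries, against -0.05, 0.06 and 0.06 in wild-type libraries. The 16 tested Hox genes had a level of 0.09, 0.16 and 0.08 in Tet2+/- libraries, against -0.10, 0.03 and -0.02 in wild-type libraries. The 20 tested Polycomb and Asxl genes had 0.0568, 0.0644 and 0.0426 in Tet2+/-, against -0.22, 0.0350 and -0.01 in wild type, so the groups were parted by a narrow gap. Neither list overlapped, 11 of 16 and 14 of 20 members were above 0, and 0 were called in either. Without wild-type replicate 1 the Polycomb median difference was 0.01 in place of 0.10, and with libraries weighted by quality 0.02. The Hox median was 0.10, and 0.06 without wild-type replicate 3 or 0.18 without Tet2+/- replicate 1. Hoxa6 was at 0.56, Hoxa4 at -0.71 and Ring1, a ubiquitin ligase of Polycomb complex PRC1, at 0.58.

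**Figure D3:**
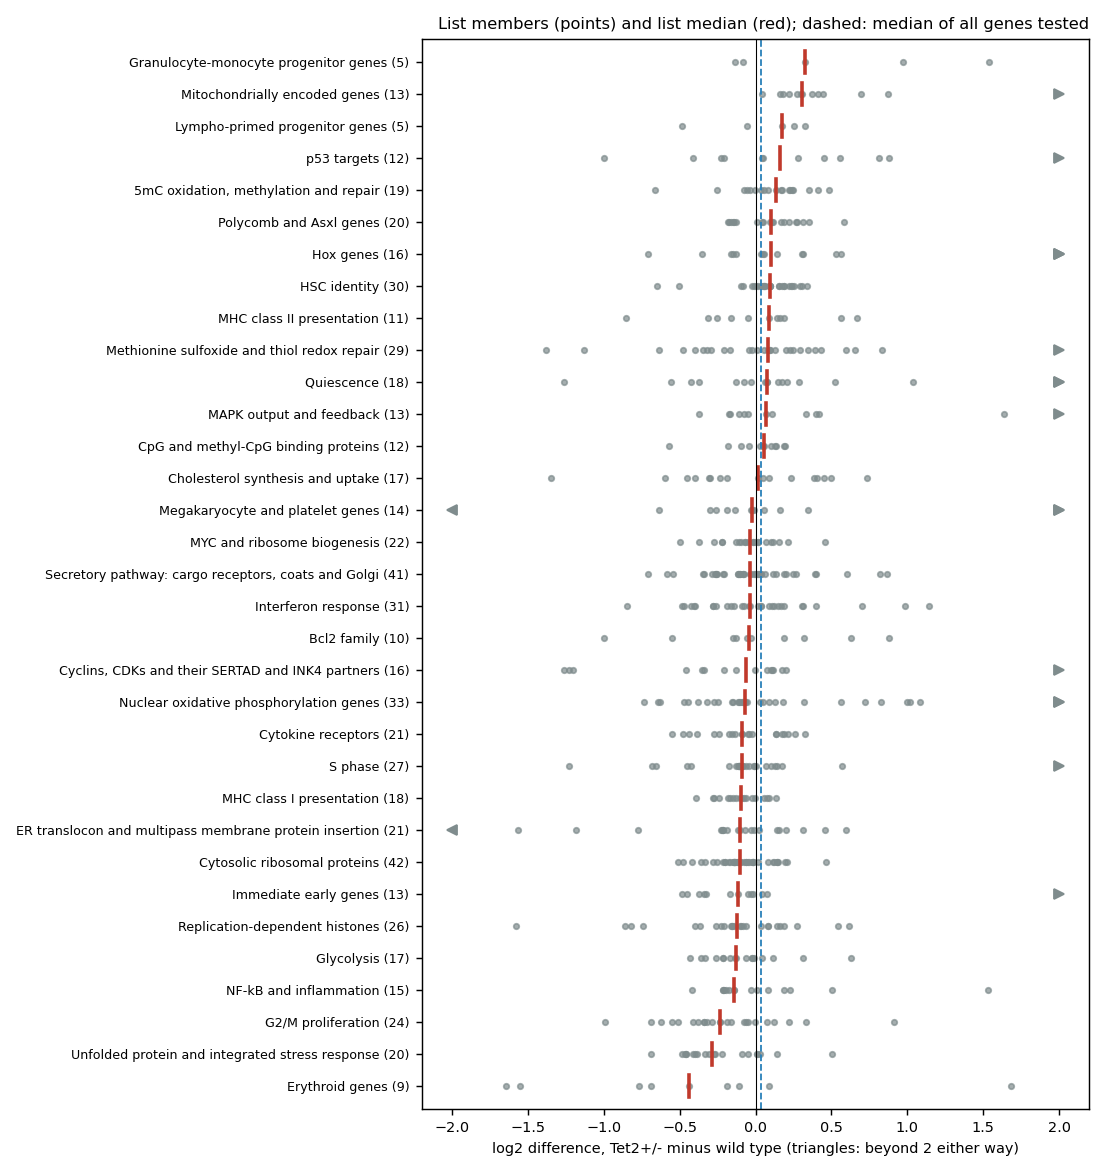
Log2 difference, Tet2+/- minus wild type, of each tested member of the gene lists with at least 5 tested members, the X-inactivation and Y-linked genes left out (points; triangles lie beyond 2 either way), with the list median in red and the number tested in brackets. Medians run from -0.44 (erythroid) to 0.33 (granulocyte-monocyte progenitor), around the dashed median of all genes at 0.03, and the members of each list spread to both sides except for the mitochondrial genes.

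Lineage genes were sparse in both groups. Of the 9 tested erythroid genes 2 were above 0 and 7 below, with a median of -0.44. The median was -0.70 without wild-type replicate 2, -0.79 in quantile-normalised values and -0.24 with voom. The list level was -0.02, -0.12 and -1.08 in Tet2+/- libraries, against 0.35, 0.37 and 0.32 in wild-type libraries. The adult beta globin Hbb-bt had 5.71, 2.98 and 2.27 RPKM in Tet2+/-, against 11.1, 11.2 and 9.48 RPKM in wild type. It did not overlap, yet its limma p was 0.234 unadjusted, with an SE of 1.30 in the fit over 12 libraries. Hbb-bs was at -1.55, while the alpha globins Hba-a1 and Hba-a2 were at 1.68 and 0.09. Klf1, Alas2 and Slc4a1 did not reach the minimum. The 5 defining erythroid markers summed to 1.08 to 4.24 RPKM in Tet2+/- and 0.686 to 2.30 RPKM in wild-type libraries, and their part in the list level was not tested.

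Myeloid and lymphoid genes gave few tested members. Of 16 granulocyte-monocyte progenitor genes 5 were tested, with 3 above 0. Prtn3, a granule protease, was at 0.33, which was also the list median. That median was -0.08 with a pseudocount of 0.5, -0.04 in quantile-normalised values and 0.19 without wild-type replicate 1. Of 15 lympho-primed genes 5 were tested, with 3 above 0, and Flt3 overlapped. Of 14 tested megakaryocyte and platelet genes 5 were above 0 and 9 below, with a median of -0.03 that was 0.03 without Tet2+/- replicate 2 and 0.02 without Tet2+/- replicate 3. Treml1, a platelet receptor, had 11.1, 5.92 and 5.0 RPKM in Tet2+/-, against 0.00696, 8.20 and 0.517 RPKM in wild type, and overlapped. No member of these lists was called.

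Signalling and immune lists had single genes at the edge. Dusp4, a phosphatase that switches off ERK, had 12.6, 8.97 and 9.93 RPKM in Tet2+/- HSCs, against 1.24, 4.17 and 7.24 RPKM in wild-type HSCs (log2 1.64 ± 0.51, limma adjusted p = 0.995). Over 13 tested genes of MAPK output and feedback 7 were above 0 and 6 below, with a median of 0.07. The median was -0.12, with 4 above 0, without wild-type replicate 1, -0.06 without Tet2+/- replicate 2, -0.01 with libraries weighted by quality and 0.28, with 10 above 0, without wild-type replicate 2. Usp18, an interferon-induced protease that removes ISG15, had 12.9, 6.07 and 11.4 RPKM in Tet2+/-, against 4.75, 5.26 and 4.65 RPKM in wild type (log2 0.98 ± 0.33). The 31 tested interferon genes divided 15 above and 16 below 0 (20 above without wild-type replicate 3), with Irf7, the master factor of the response, at -0.85.

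Of 18 tested MHC class I genes 14 were below 0, with a median of -0.10 (-0.15 without wild-type replicate 3, -0.03 in quantile-normalised values) and a lowest difference of -0.40. Psme1, a proteasome activator, was at -0.28 and Tap2, which carries peptides into the endoplasmic reticulum, at -0.40. Of the 11 MHC class II genes 6 were above 0, and H2-Ab1, a class II beta chain, was at -0.86 without overlap. NF-kB and inflammation genes were 6 above and 9 below of 15, and 9 above without Tet2+/- replicate 1.

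Immediate early genes, which respond within minutes to growth factors and to cell handling, varied by library in both groups. Fos had 6.62, 174 and 57.4 RPKM in Tet2+/- libraries 1, 2 and 3, against 24.2, 148 and 50.7 RPKM in wild-type libraries 1, 2 and 3. The list level was -1.36, 1.25 and -0.10 in Tet2+/-, against -0.74, 1.11 and -0.25 in wild type. Libraries numbered 2 were high and those numbered 1 low in each genotype, and 0 of 13 members had an interval within -1 and 1. Both libraries numbered 1 were male and both numbered 2 female by Xist and Y-linked transcripts, so number and sex cannot be told apart there. The list median was -0.11, with 3 of 13 above 0, and became 0.50, with 12 above 0, with sex as a covariate. What the number marks is not given in the sources used here.

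**Figure D4:**
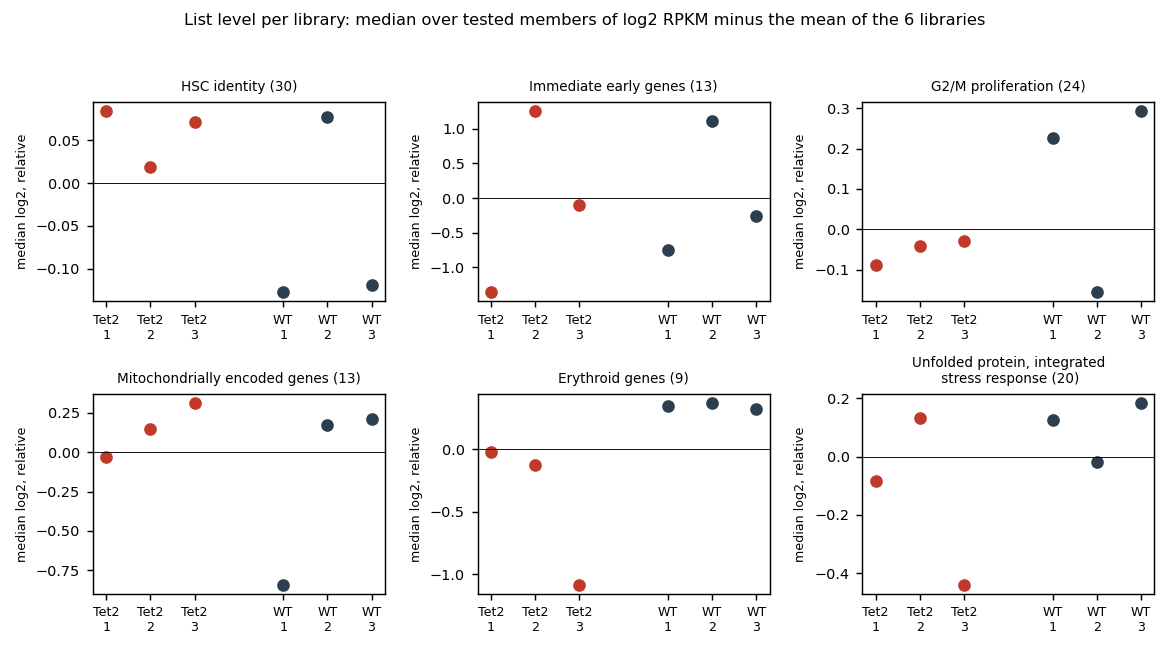
Level of 6 gene lists in each library: the median over tested members of log2 RPKM minus the gene's mean over the 6 libraries, with Tet2+/- (red) left of wild type (dark). The erythroid level separates the groups. The immediate early level is low in the libraries numbered 1, both male, and high in those numbered 2, both female. The mitochondrial level is low in wild-type replicate 1 and the stress response level in Tet2+/- replicate 3.

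Metabolic and stress lists moved with single libraries. All 13 tested mitochondrially encoded genes were above 0, with a median log2 difference of 0.31 and 0 called. The list level was -0.03, 0.15 and 0.31 in Tet2+/-, against -0.84, 0.17 and 0.21 in wild type. Without wild-type replicate 1 the median was -0.04 and 4 of 13 were above 0. It was 0.18 without Tet2+/- replicate 3, 0.19 with voom and 0.15 with libraries weighted by quality. The medians without Tet2+/- replicate 1, wild-type replicate 2 and wild-type replicate 3 were 0.46, 0.47 and 0.52. The library preparation depleted ribosomal and mitochondrial RNA. Whether that step reached these transcripts is not given in the sources used here, and its part in their level was not tested.

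Nuclear genes of oxidative phosphorylation were 14 above and 19 below 0 of 33, with a median of -0.07 (-0.03 without Tet2+/- replicate 1, -0.13 without wild-type replicate 2). Cox10, which makes the heme A of cytochrome oxidase, had 11.3, 9.29 and 9.17 RPKM in Tet2+/- HSCs, against 3.41, 5.65 and 5.89 RPKM in wild-type HSCs (log2 1.03 ± 0.29). Mrpl18, a protein of the mitochondrial ribosome, had 4.22, 9.76 and 9.56 RPKM in Tet2+/-, against 20.6, 13.3 and 13.9 RPKM in wild type (log2 -1.09 ± 0.32). The differences of both genes were largest against wild-type replicate 1.

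Of 20 tested genes of the unfolded protein and integrated stress response 5 were above 0 and 15 below, with a median of -0.29. Their level was -0.08, 0.13 and -0.44 in Tet2+/-, against 0.13, -0.02 and 0.18 in wild type, and the median was -0.08 without Tet2+/- replicate 3, -0.13 without Tet2+/- replicate 1 and -0.15 with sex as a covariate. Herpud1, which serves endoplasmic reticulum protein degradation, was at -0.49. Glycolysis genes were 4 above and 13 below of 17, with a median of -0.13 that was -0.07, with 7 above, without wild-type replicate 1. Cytosolic ribosomal proteins were 10 above and 32 below of 42, with a median of -0.10. The ribosomal median was -0.05 with 17 above 0 without Tet2+/- replicate 1, -0.06 with 18 above 0 without wild-type replicate 3 and -0.01 with sex as a covariate. Cholesterol genes were 9 above and 8 below, and 4 above without wild-type replicate 3.

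Redox repair gave a gene on each side. Msra, which reduces oxidised methionine in proteins, had 5.62, 7.39 and 7.34 RPKM in Tet2+/- HSCs, against 19.1, 11.5 and 14.6 RPKM in wild-type HSCs (log2 -1.13 ± 0.26, limma adjusted p = 0.995). Sod2, the mitochondrial superoxide dismutase, had 19.0, 14.2 and 17.8 RPKM in Tet2+/-, against 9.83, 12.4 and 11.4 RPKM in wild type (log2 0.60 ± 0.19). Neither gene overlapped, and of the 29 tested members 17 were above 0 and 12 below, with a median of 0.08 and 0 called. That median was -0.03 without wild-type replicate 1, 0.00 without Tet2+/- replicate 1 and 0.20 without Tet2+/- replicate 3.

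Genes of p53 and apoptosis also divided. Polk, a translesion DNA polymerase, was at 0.81, Bbc3 (Puma), a pro-apoptotic protein, at 0.88 and Bax, its effector, at -1.0. Bax had 7.77, 7.92 and 9.34 RPKM in Tet2+/-, against 30.4, 8.5 and 17.8 RPKM in wild type, and overlapped. Of 12 tested p53 targets 8 were above 0 (5 without wild-type replicate 1), and of 10 Bcl2 family genes 4 (6 without Tet2+/- replicate 1 or wild-type replicate 2), with 0 called in either list.

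The rest of the 24 were of mixed function. Rwdd2b had 7.43, 7.79 and 8.57 RPKM in Tet2+/- HSCs, against 3.02, 4.47 and 3.52 RPKM in wild-type HSCs, the smallest p of all named higher genes apart from 1600002K03Rik (0.000808, limma, unadjusted). The zinc finger genes Zfp764 and Zfp820 were higher (1.54 and 0.88) and Zfp146 lower (-0.82). Nosip, which binds nitric oxide synthase, was higher by 1.03 and Zranb1, a deubiquitinase, by 0.45. Cdc37, the HSP90 co-chaperone of kinases, was lower (-0.51), as was Mob3c (-0.97). Rpl36-ps10, a processed pseudogene at 11 to 50 reads in these libraries, had a log2 difference of -1.36, and its reads may be shared with its parent gene.

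The compound and NrasG12D/+ libraries measured the same Tet2 contrast in other samples, whose difference did not choose the named genes. The fit took a shared variance for each gene over all libraries. The spread within the compound and NrasG12D/+ libraries therefore entered the p-values that chose the genes. In compound minus Nras, limma called 0 genes in either direction (0.0% each), with 562 at an unadjusted p under 0.05 (3.97%). Of the 478 genes at an unadjusted p under 0.05 in Tet2+/- against wild type, 242 had the same sign there, or 50.6%. Over all genes tested that share was 51.7%. Of the 478, 19 also had a p under 0.05 there with the same sign and 19 with the opposite sign. Of all 14173 genes tested, 297 had a p under 0.05 there with the same sign and 265 with the opposite sign. The p-values of both contrasts rest on the shared variance, so nothing is read from these counts.

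Of the 24 named genes, 6 of the 12 higher ones and 9 of the 12 lower ones kept their sign in compound minus Nras. Sertad1 had 2.76, 1.89 and 3.85 RPKM in compound HSCs, against 4.28, 6.95 and 5.36 RPKM in NrasG12D/+ HSCs (log2 -1.0 ± 0.29, limma adjusted p = 1). Nsmce2 had 9.11, 5.52 and 5.27 RPKM in compound HSCs, against 3.42, 4.58 and 3.18 RPKM in NrasG12D/+ HSCs (log2 0.80 ± 0.31, limma adjusted p = 1). For both genes all 6 libraries with the Tet2 allele lay on the same side of all 6 libraries without it. The Tet2+/- and wild-type libraries were parted by the way the genes were chosen. The share of all genes tested that part this way was not counted, so nothing is read from these 2 genes.

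Rwdd2b and Zfp820 went the opposite way there. Zfp820 had 3.42, 6.75 and 4.71 RPKM in compound HSCs, against 7.74, 8.90 and 8.02 RPKM in NrasG12D/+ HSCs (log2 -0.78), and Rwdd2b was at -0.57. The largest of the other 20 differences was -0.67, for Zfp764. The interaction had an unadjusted p under 0.05 for 17 of the 24, where 3.23% of all genes did. The 24 were chosen on part of that contrast, so nothing is read from this count, and none of them was called.

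**Figure D5:**
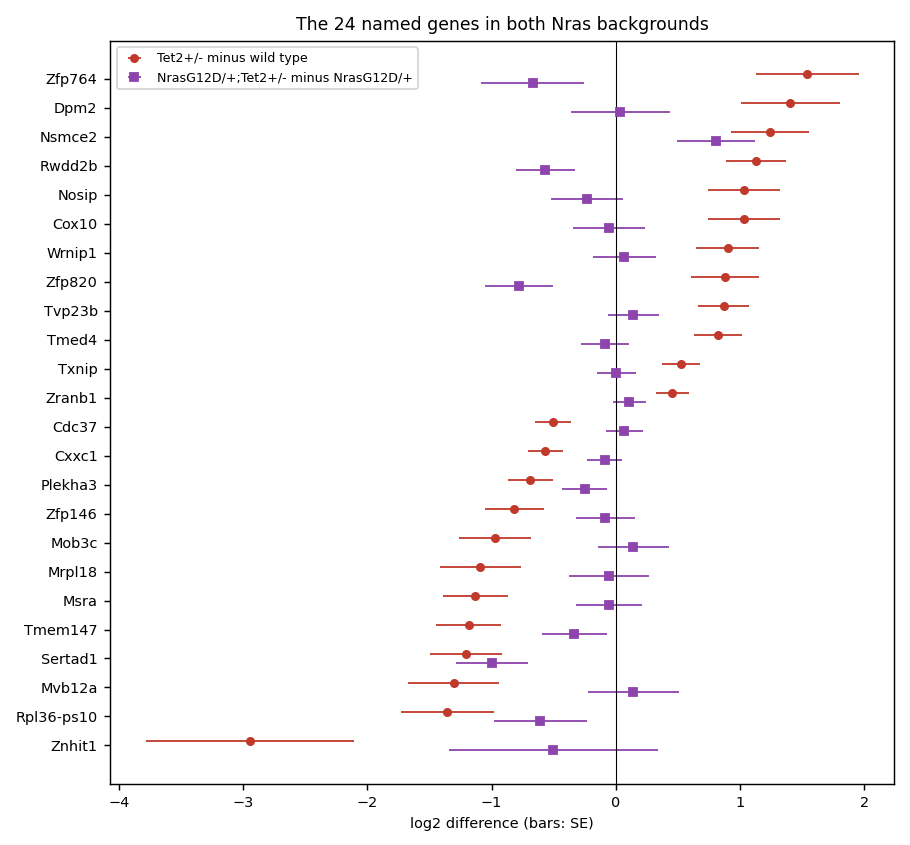
Log2 difference ± SE of the 24 named genes in Tet2+/- minus wild type (red circles), which chose them, and in NrasG12D/+;Tet2+/- minus NrasG12D/+ (purple squares). The purple differences did not choose the genes, but the spread within those libraries entered the p-values that did. Sertad1 and Nsmce2 lie on the same side in both, Rwdd2b and Zfp820 on opposite sides, and most purple squares sit near 0.

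By gene class, long transcripts were more often above 0 than short ones. Of the 13261 tested genes placed on the annotation, those with at least 5000 bases of exon were above 0 in 60.4% of cases (4549 genes, median log2 difference 0.06). Those under 1000 bases were above 0 in 48.2% (2261 genes, median -0.03). Pseudogenes were above 0 in 43.7% (1917 genes) and long noncoding genes in 59.9% (661 genes), beside 53.9% of all genes tested. The share of genes under 1000 bases was 39.9% without wild-type replicate 1 and 54.8% without Tet2+/- replicate 1, and that of the longest class was 56.6% without wild-type replicate 1. Median centring moved the median of all genes to 0.00 and the longest class to 55.1%. With sex as a covariate 53.8% of genes under 1000 bases and 58.4% of the longest class were above 0. The medians were then 0.06 and 0.05, so their order was not kept. Without Tet2+/- replicate 1 the medians were 0.09 under 1000 bases and 0.05 in the longest class.

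Chromosomes differed little. The autosomes had at most 58.1% of genes above 0, and the X chromosome 49.4% of 538. Of 8 tested Y-linked genes 6 were above 0, beside the 2 male Tet2+/- libraries and 1 male wild-type library. Adding sex as a covariate left 1600002K03Rik as the called gene.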

How the data were processed

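Total RNA was measured in sorted mouse hematopoietic stem cells (HSCs), in 12 libraries of 4 genotypes. The deposited table, made by the authors, holds log2 RPKM (reads relative to gene length and depth) for 18546 genes, an other unit than counts. Per the submitters' processing notes, CASAVA 1.8.2, TopHat2, edgeR and the mm10 build were used. The role of each is not given in the sources used here.

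The members and gene lists were chosen with earlier results of these data known. The deposited values went into limma 3.58.1 (R 4.3.3), with a mean for each of 4 genotypes and a variance trend, which left 8 residual degrees of freedom. P-values are two-sided and Benjamini-Hochberg adjusted over 14173 genes, and adjusted p under 0.05 was called. The compound-minus-Nras and interaction contrasts came from the same fit. Gene lists received no test. Named genes were Tet2, Nras, each called gene and, in each direction, the 12 smallest p-values among genes whose groups did not overlap and whose higher group reached 1 RPKM in all 3 libraries. Provisional identifiers and Y-linked genes were left out of those 12. Up to 4 members of smallest p were named in each list described. The alternatives covered minimum, pseudocount, scaling, libraries fitted, covariates, variance model, library weights, voom and each library left out. The fit was checked on simulated data.

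The deposited values fitted whole reads plus a prior of 0.25 reads within 0.001 reads for 100% of the genes, so the depth of each library could be read. Sums were 19205045 to 36890942 reads in genes. For a count of 0 the bound was 3 reads in each library, a limit on counting error alone. The gene length behind RPKM equalled the summed exons of all annotated transcripts for 67.7% of matched genes, and its median ratio to the merged exon length was 1.23. RPKM was therefore compared between libraries and not between genes. Symbols were matched to GENCODE M21, which placed 13261 of the tested genes. A promoter window was found for 58.8% of tested genes, so a comparison of promoter CpG classes was void and was not made.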

Additional observations from a re-analysis of the deposited data

Results flagged for a closer look

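1600002K03Rik was singled out because its difference between Tet2+/- and wild-type HSCs was not matched in the other Nras background. The difference was 7.78 on the log2 scale in Tet2+/- against wild type, with 0 reads in all 3 wild-type libraries. It was -0.68 in compound against NrasG12D/+ HSCs. The interaction was -8.47 on the log2 scale, with a limma adjusted p of 0.0225 in the fit over 12 libraries and 14173 genes. The 6 libraries that carry the Nras allele held 49 to 149 reads of this gene. The call was lost with a pseudocount of 0.5, quantile normalization, the replicate block, sex as a covariate or voom, and when any of 6 single libraries was left out (Tet2+/- 1 or 3, compound 1 or 2, Nras 1 or 2).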

How the results depend on the processing

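The Tet2+/- against wild-type comparison called 1 higher gene. That count was 0 with a pseudocount of 0.5, quantile normalization, only the compared libraries, or voom. It was 2 without a variance trend and 1 to 15 over the leave-one-out fits, the 15 being without wild-type replicate 2. The count of lower calls was 0 under every alternative run, with 278 to 1053 genes at an unadjusted p under 0.05 over the leave-one-out fits. The Tet2 difference lay between -0.156 and 0.0217 over the leave-one-out fits, and was above 0 in the fit without Tet2+/- replicate 2.

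Higher calls in compound minus Nras numbered 0, against 1 with only the compared libraries and 0 to 10 over the leave-one-out fits. Lower calls there numbered 0, against 1 without a variance trend and 0 to 5 over the leave-one-out fits. Interaction calls numbered 0 higher and 1 lower. The higher count was 0 to 2 and the lower count 0 to 6 over the leave-one-out fits. The lower count was 2 with no minimum, with the minimum over 12 libraries and without a variance trend. It was 0 with a pseudocount of 0.5, quantile normalization, the replicate block, sex as a covariate or voom. The interaction has no value with only the compared libraries. The cause was not tested.

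Same-numbered Tet2+/- and wild-type libraries deviated together with correlations of 0.12, 0.10 and 0.03, against -0.13 to 0.08 for pairs with different numbers. What the number marks is not known, and the main fit did not pair the samples by it. With the replicate block the main comparison called 1 higher and 0 lower genes. Of the 25 genes named beside the targeted pair, 24 kept their direction and their side of the threshold under every alternative run, and 1600002K03Rik lost its call in 4. The 24 were chosen for lack of overlap. Leaving out 1 library could therefore not turn their direction, and nothing is read from the direction in those fits. Depth was lowest in wild-type replicate 1, at 19205045 reads.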
